A study of Mus musculus with 22 samples.

Results

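Of 12 pancreatic tumors of mice, the 3 with the most RNA of acinar cells were compared with the other 9. Each tumor was ranked by its mean log2(CPM + 1) over 5 acinar enzyme genes (Cela1, Ctrb1, Cpa1, Cpb1 and Pnlip), where CPM are counts scaled to the library total. The 3 highest were KO tumor 4 (8.32), KO tumor 8 (5.91) and WT tumor 4 (5.61), called acinar-rich below. They are 3 of 22 libraries of the series, whose other 10 are cancer cell lines. The next tumor, KO tumor 3, stood at 5.10, followed by KO tumor 5 at 4.89 and KO tumor 1 at 4.70. The remaining 6 ran from 3.51 down to 1.02, so the scores form a gradient with no clear break behind the third. Left out of the ranking 1 at a time, Cela1, Ctrb1, Cpa1 and Cpb1 kept all 3 members, while without Pnlip KO tumor 3 (6.09) passed WT tumor 4 (6.01). The ranking genes themselves are left out of all that follows.

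The tumors arose in Bl6 mice of a K-Ras-driven model of pancreatic cancer, either lacking microRNA-21 (KO, 8 tumors) or with it (WT, 4 tumors). Recombined K-Ras and p53 alleles are recorded for the cancer cells grown from such tumors. The driver of the recombination and the ages are not given in the sources used here, and no group was treated. RNA came from frozen whole tumors, 1 library per tumor, each titled with a different animal. The acinar-rich group held 2 KO tumors and 1 WT tumor, which is 25% of each genotype, and the other group held 6 KO and 3 WT tumors. None of the 3 acinar-rich animals gave any of the 10 lines (5 KO, 5 WT), which had been grown for several passages to leave cancer cells alone. By their titles, lines did come from the animals of KO tumors 2 and 3 and WT tumors 1, 2 and 3, all in the other group. Totals were 24547650 to 30106745 counts per tumor and 24796473 to 31118113 per line. The gene of microRNA-21 itself had 0 counts in every tumor and line, so these libraries do not check the genotype labels.

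Acinar cells make up most of a healthy pancreas. They produce digestive enzymes, largely as inactive precursors, pack them into zymogen granules and release them into the ducts when cholecystokinin or acetylcholine acts on them. Their enzyme genes are switched on by the PTF1 complex, which includes PTF1A and RBPJL, together with the nuclear receptor NR5A2. In K-Ras-driven disease acinar cells lose this program as they take on duct features, and remnants of normal lobules often lie beside or within a tumor. In whole-tumor RNA, more cells of a type and more RNA per cell cannot be told apart, nor can leftover acini and cancer cells that still transcribe acinar genes.

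The promoter of Cel, the gene of bile salt-stimulated lipase, is shown because it held a match to both motifs searched in the acinar genes. It lies on chromosome 2, minus strand, chr2:28563404-28563653 (RefSeq, GRCm38.p6), and the 250 bases before the start site read, with the matches in capitals:
Cel promoter: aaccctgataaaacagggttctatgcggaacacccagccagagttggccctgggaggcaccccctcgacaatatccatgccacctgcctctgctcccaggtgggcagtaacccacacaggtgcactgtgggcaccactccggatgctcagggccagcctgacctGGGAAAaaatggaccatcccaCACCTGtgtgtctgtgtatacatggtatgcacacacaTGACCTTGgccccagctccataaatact
On the opposite strand the first pair of capitals reads as the E-box CANNTG followed by TTTCCC, the half-sites bound by PTF1, and the last reads as CAAGGTCA, the half-site bound by NR5A2. Read in that direction, the matches of the acinar genes were these, with the motif letters in capitals and some bases around them:
Cel, E-box and TTTCCC: aCAGGTGtgggatggtccatttTTTCCCa
Prss1, E-box and TTTCCC: agcaCACCTGtgggTTTCCCcttc
Cel, CAAGGTCA: gggcCAAGGTCAtgtg
Klk1, CAAGGTCA: atggCAAGGTCAgggg
The search covered both strands of windows from 250 bases before to 50 after each start, with 4 to 6 or 14 to 16 bases between CANNTG and TTTCCC. Of the 54 acinar genes in the lists below, 40 had a window in the table. The paired half-sites were found in 2 of their 44 windows (4.55%) and in 0.734% of 32851 windows of all genes. CAAGGTCA was found in 2 of the 44 (4.55%) and in 1.56% of all windows. The 2 motifs share no letters here, and a match is a run of letters, not a measured binding site.

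The acinar-rich tumors also carried more RNA of the acinar enzymes that had no part in the ranking. The 23 genes of this list took 0.209% of all counts in KO tumor 4 (95% exact Clopper-Pearson interval 0.207 to 0.211%), 0.0633% in KO tumor 8 (0.0624 to 0.0643%) and 0.0380% in WT tumor 4 (0.0373 to 0.0388%). In the other 9 tumors the share went from 0.000467% in WT tumor 3 to 0.0294% in KO tumor 5. Intervals cover counting error only. All 4 acinar lists together took 0.329% of counts in KO tumor 4, the tumor with the most. These are shares of listed genes without the ranking genes, and the RNA of acinar cells as a whole was not measured. KO tumor 4 stood further above KO tumor 8 in its enzyme share than KO tumor 8 stood above the nearest of the other 9.

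Levels from here on are CPM scaled by TMM (edgeR's library factors), and fold changes are log2, acinar-rich minus other, with genotype in the fit. The ± beside a fold change is a standard error (SE), worked out as its absolute value over the square root of edgeR's F statistic. The tumors were grouped by expression in these same libraries, so fold changes and p-values of this contrast sort genes and are no test. Of 23 enzyme genes 18 passed the low-count filter, and all 18 had a positive fold change, with a median of 3.83 beside 0.01 over all 18674 genes. A gene at 0 in most tumors passes this filter through the group where it is high, so the count and the median describe the list and support nothing. With all 3 acinar-rich tumors above all 9 others stood 9 of the 18, against 225 of all genes (1.2%). The median of the list was 3.33 when KO tumor 4 was left out, 4.33 when KO tumor 8 was and 3.43 when WT tumor 4 was. With KO tumor 3 as a member in place of WT tumor 4 it was 3.24. The 5 genes that did not pass were Amy2a5, Cela3a, Ctrc, Dnase1 and Prss1, none of which reached 2 CPM in any tumor.

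Prss2, a trypsinogen, stood at 325 CPM in KO tumor 4, 187 in KO tumor 8 and 91.6 in WT tumor 4, and at 0.213 to 79.1 (median 11.2) in the other 9 (log2 fold change 3.82 ± 1.02). KO tumor 4 was the highest of the 12 tumors and the groups did not overlap. Clps, the cofactor of pancreatic lipase, stood at 124, 18.3 and 13.0 CPM in the same order, against 0.0775 to 9.31 (3.87 ± 0.82). Pnliprp1, a relative of pancreatic lipase, stood at 333, 89.2 and 96.2 CPM against 0 to 60.9 (4.28 ± 1.21). Cel, whose promoter is printed above, stood at 209, 94.6 and 45.6 CPM in the acinar-rich tumors. The other 9 ran from 0.0354 to 52.7 CPM of Cel, with KO tumor 5 above WT tumor 4, so its groups overlapped (3.60 ± 1.03).

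The enzymes differed among themselves in the tumor that carried them. KO tumor 4 was the highest of the 12 tumors for 17 of the 18 genes, and the exception was Prss3, at 12.3 CPM in KO tumor 8 and 1.23 in KO tumor 4. Klk1, a kallikrein with a CAAGGTCA match, stood at 83.8 CPM in KO tumor 4 and 14.9 in WT tumor 4, but at 3.49 in KO tumor 8, below KO tumor 3 (7.63). Pnliprp2, another relative of pancreatic lipase, stood at 51.9 CPM in WT tumor 2, above WT tumor 4 (7.53) and KO tumor 8 (26.8). WT tumor 2 had low levels of the other lipases, with 4.15 CPM of Pnliprp1. The trypsinogen genes Prss1, Prss2, Prss3, Try4, Try5 and Try10 and the amylase genes are near copies of each other, and how reads shared between copies were counted is not given in the sources used here, so their split is uncertain.

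**Figure D1:**
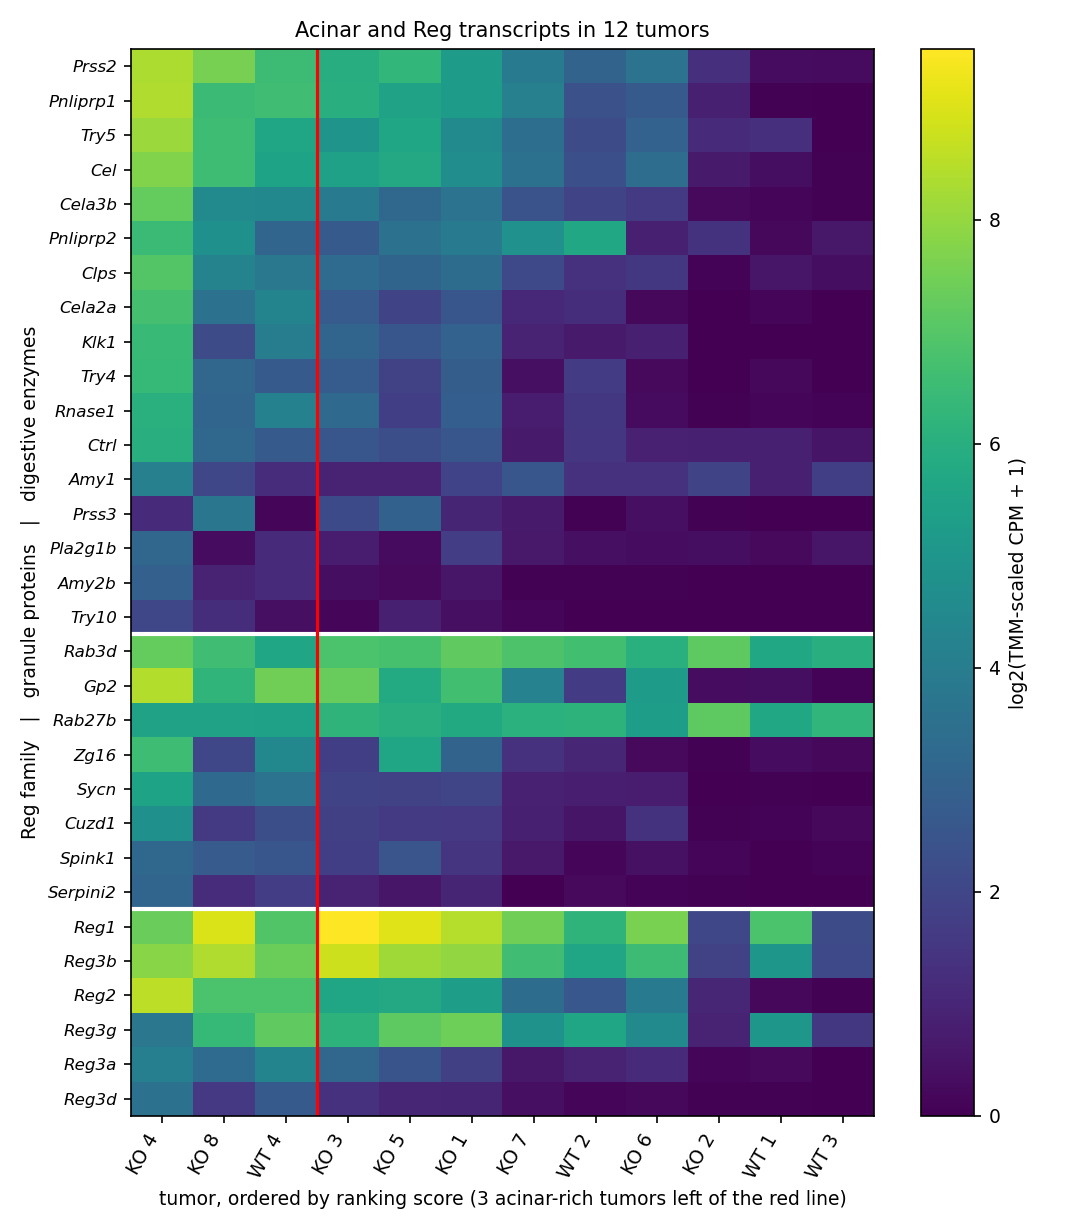
Level of tested enzyme, granule protein and Reg genes (rows, 1 enzyme gene not shown) in 12 tumors (columns, ordered by the ranking score), as log2(TMM-scaled CPM + 1) on a color scale. KO tumor 4 was highest for all enzymes shown but Prss3, while Reg1, Reg3b and Reg3g were as bright right of the red line as left of it.

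Proteins of the zymogen granule stood out with the enzymes. Of 9 genes in this list 8 were measured, with a median log2 fold change of 3.68 (2.17 without WT tumor 4, and 2.03 with KO tumor 3 as a member in its place). For 3 of the 8 the groups did not overlap, against 1.2% of all genes. Sycn, the granule protein syncollin, stood at 45.2 CPM in KO tumor 4, 8.50 in KO tumor 8 and 11.4 in WT tumor 4, against 0 to 3.02 in the others (4.52 ± 1.02). Its gene overlaps Samd4b on the opposite strand, whose counts were far higher. Samd4b stood at 98.9, 89.6 and 143 CPM in the acinar-rich tumors, against 145 ± 24.1 (SD) in the other 9. It was thus below that mean in KO tumors 4 and 8 and near it in WT tumor 4. Whether reads of this pair were mixed was not tested. Gp2, the main membrane protein of the granule, stood at 343, 73.4 and 173 CPM, but KO tumor 3 carried 159, so the groups overlapped (4.74 ± 1.71). Rab3d and Rab27b, small GTPases of granule release that other secretory cells also use, had fold changes of -0.09 ± 0.27 and -0.70 ± 0.32.

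The transcription factors of acinar cells were far less uniform than the enzymes. Rbpjl, the acinar partner of PTF1A, stood at 4.09, 6.77 and 3.67 CPM in KO tumor 4, KO tumor 8 and WT tumor 4, against 0 to 2.15 in the others (3.56 ± 0.83). Rbpjl overlaps Matn4 on the opposite strand, and Matn4 stood at 3.54, 5.33 and 3.94 CPM against 1.26 ± 0.72 (SD) in the other 9. The kit marks strand, but whether the counting used it is not given in the sources used here, so reads of this pair cannot be told apart. Ptf1a itself lay near the limit of detection, at 0.358, 1.73 and 0.309 CPM, and KO tumor 5 reached 0.598. A count of 0 in the smallest library still allows 0.122 CPM (3 counts). Nr5a2 stood at 8.15 and 17.9 CPM in the 2 KO tumors but at 1.62 in WT tumor 4, inside the 0.614 to 8.16 of the others (1.12 ± 0.55).

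Other factors of the list, which the cancer cells or other cell types also express, had fold changes from -0.76 to 0.52. Among them were Xbp1 (0.38 ± 0.19) and Bhlha15 (0.34 ± 0.50), which serve the secretory machinery, and Foxa3 (0.52 ± 0.50), Nr0b2 (-0.46 ± 0.93) and Gata4 (-0.76 ± 0.77). Gata4 stood at 38.4 and 32.5 CPM in the acinar-rich KO tumors and at 6.56 in WT tumor 4. Cckar, the cholecystokinin receptor of acinar cells, stood at 5.17, 6.35 and 1.31 CPM against 0 to 1.51 (2.82 ± 0.93), so that WT tumor 4 lay inside the other group. Chrm3, the muscarinic receptor for acetylcholine, stood at 6.20, 5.57 and 7.64 CPM, and KO tumor 3 at 9.17 lay above all 3 (1.22 ± 0.58). Their list of receptors, transporters and metabolism had a median of 1.00, with 7 of 9 tested genes positive and 2 negative. For 0 of the 9 did all 3 acinar-rich tumors stand above the others. Aqp8 of this list went the other way, at 0.318, 0.0353 and 0.193 CPM against 0.0703 to 7.03 (-2.82 ± 1.29). The 26 tested genes of protein production in the endoplasmic reticulum, abundant in acinar cells, had a median of 0.03.

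Reg genes encode small secreted proteins that acinar cells make, above all under inflammation. Reg2 stood at 377 CPM in KO tumor 4, 112 in KO tumor 8 and 112 in WT tumor 4, against 0.0354 to 52.9 in the others (4.35 ± 1.10). Reg3d (4.50 ± 0.98) and Reg3a (3.67 ± 1.16) also had groups that did not overlap. Reg1 instead was highest in KO tumor 3, at 735 CPM, and KO tumor 5 (528) lay above KO tumor 8 (504), KO tumor 4 (161) and WT tumor 4 (121), for a fold change of 0.35 ± 1.05. Reg3b (1.35 ± 0.98) and Reg3g (0.72 ± 1.26) overlapped as well. Reg1, Reg3b and Reg3g were thus as high in tumors just outside the group as in those inside it.

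Most islet hormone genes were high in only 1 of the 3 acinar-rich tumors. Ins2, an insulin gene of beta cells, stood at 108 CPM in KO tumor 8 but at 1.59 in KO tumor 4 and 0.116 in WT tumor 4, against 0 to 24.9 (median 2.23) in the others. Gcg, the glucagon gene of alpha cells, stood at 47.3 CPM in KO tumor 8, 0.636 in KO tumor 4 and 0 in WT tumor 4, against 0 to 26.9 in the others. KO tumor 8 was the highest of the 12 tumors for 7 of the 8 hormone genes, and WT tumor 4 was the lowest of the acinar-rich tumors for all 8. The exception was Ghrl, the ghrelin gene, at 26.2 CPM in KO tumor 4, 22.9 in KO tumor 8 and 25.2 in KO tumor 3. Ghrl overlaps Gm26982 on the opposite strand. The list's median fold change was 1.05, and -2.41 without KO tumor 8. In the other 9 tumors, by contrast, islet and acinar RNA ran in nearly the same order. Their hormone list means, as log2(CPM + 1), were 4.31, 2.81, 3.34 and 3.71 in KO tumors 3, 5, 1 and 7, which have the highest scores of the 9, and 0.06 to 1.32 in the remaining 5. KO tumor 4 (1.82) and WT tumor 4 (0.10) stood below that order, and the median per unit of score over all 12 tumors was 0.79. The hormone list also went with genotype. Its median KO against WT fold change was 4.39 with the acinar-rich group in the fit and 4.93 without it. List means were 0.06 to 1.32 in the WT tumors, while KO tumors 6 (1.31) and 2 (0.15) were low as well. The part of genotype in the islet order was not tested. In KO tumor 4, with the most acinar RNA, hormone genes took 0.00400% of counts, below KO tumor 3 (0.0167%), KO tumor 7 (0.0115%), KO tumor 1 (0.00827%) and KO tumor 5 (0.00619%).

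Genes of normal ducts showed little in common: the 10 had a median of 0.04, with Cftr, the chloride channel of duct cells, at 103, 270 and 132 CPM against 41.4 to 437 in the others. Bicc1, an RNA-binding protein of ducts, stood at 263, 234 and 196 CPM against 100 to 202 (0.72 ± 0.15). The 15 genes of the ductal tumor epithelium had a median of -0.26, and 10 of the 15 were negative. The median was -0.15 without KO tumor 4, -0.07 without KO tumor 8 and -0.47 without WT tumor 4. Among them Cdh1, the E-cadherin gene, stood at 574, 644 and 845 CPM, against 522 to 1321 (-0.64 ± 0.24).

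Markers of other cell types moved with the acinar-rich group, and their part in the results was not tested. All 11 macrophage genes had positive fold changes, with a median of 1.03, and 4 of the 11 had groups that did not overlap, against 1.2% of all genes. C1qa, a complement subunit made by macrophages, stood at 386, 388 and 254 CPM in KO tumor 4, KO tumor 8 and WT tumor 4, against 83.9 to 216 in the others (1.02 ± 0.22). Cd68 stood at 102, 62.2 and 58.7 CPM against 22 to 47.0 (1.06 ± 0.21). The mean of the macrophage list, as log2(CPM + 1), was 7.04, 6.96 and 5.93 in the acinar-rich tumors and 5.02 to 6.20 in the others, so WT tumor 4 lay inside their range.

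Lymphocyte genes were uneven within the group, and B and plasma cell genes were also high in WT tumor 2. KO tumor 8 was the highest of the 12 tumors for 13 of 14 T and NK cell genes. It was also the highest for 9 of 13 B and plasma cell genes. Lck, a kinase of T cells, stood at 57.8 CPM there, 5.80 in KO tumor 4 and 4.13 in WT tumor 4, against 0.719 to 20.3 in the others. Cd79b, part of the B cell receptor, stood at 107 CPM in KO tumor 8, 13.3 in KO tumor 4 and 2.39 in WT tumor 4, and WT tumor 2 carried 51.5. Jchain, Mzb1 and Derl3 were highest in WT tumor 2, with Jchain at 398 CPM there, 274 in KO tumor 4 and 173 in KO tumor 8. The B and plasma list means were 3.39, 5.63 and 1.44 in KO tumor 4, KO tumor 8 and WT tumor 4. They were 5.19 in WT tumor 2 and 3.41 in KO tumor 7. The median fold change of the T and NK list was 2.86 with all tumors and 0.29 without KO tumor 8, and that of the B and plasma list 3.01 and 0.59. Without KO tumor 7 the B and plasma median was 4.70.

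Fat cell genes were high in all 3 acinar-rich tumors, and also in WT tumors 2 and 3. Adipoq, the adipocyte hormone adiponectin, stood at 13.2, 20.3 and 5.64 CPM in KO tumor 4, KO tumor 8 and WT tumor 4. It reached 10.1 in WT tumor 2 and 10.1 in WT tumor 3, and at most 0.454 in the other 7. Lpl, a lipase of fat, muscle and macrophages, stood at 349, 222 and 99.7 CPM against 25.5 to 94.3, with no overlap (1.82 ± 0.39). Cyp2e1, listed as a liver gene, followed the same tumors, at 36.3, 22 and 3.17 CPM, with 13.0 in WT tumor 3 and 6.95 in WT tumor 2. Alb, the albumin of hepatocytes, stood at 0.199, 0.670 and 1.31 CPM in the acinar-rich tumors, and 6 of the 8 tested hepatocyte genes had negative fold changes.

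Stromal lists split the 3 tumors. The matrix proteoglycan gene Dcn stood at 3427 CPM in KO tumor 4 and 970 in KO tumor 8, but at 174 in WT tumor 4, against 98.3 to 665 in the others. Its fold change was 1.88 ± 0.59, while the 16 fibroblast and matrix genes had a median of 0.40, with 15 positive. KO tumor 8 was the highest of the acinar-rich tumors for 11 of the 16 and KO tumor 4 for 4. The list means were 8.78, 8.91 and 7.67 against 6.93 to 8.30. KO tumor 4 was the highest of the 12 for 9 of 11 endothelial genes, among them Pecam1 at 160 CPM, against 119 in KO tumor 8, 48.4 in WT tumor 4 and 38.0 to 99.2 in the others. Without KO tumor 4 the median of the endothelial list went from 0.63 to 0.15, and without WT tumor 4 to 1.07. The erythroid list had a median of 1.12 (0.67 without KO tumor 4), with the globin gene Hbb-bs at 531, 119 and 208 CPM against 56.6 to 319. Mesothelial genes had a median of 1.33 (0.47 with KO tumor 3 as a member in place of WT tumor 4), with list means of 5.61, 5.11 and 4.53 against 3.73 to 5.90. Of these 10 genes 7 were positive and 3 negative. Among the negative were Cpe (-1.60 ± 0.51), also in an islet list, and Krt19 (-0.37 ± 0.29), also in the ductal list. The median of the skeletal muscle list was -0.96 but 0.12 without WT tumor 4, and -0.58 without WT tumor 3, which had the highest muscle levels. That of the intestinal list was -1.17, with -0.42 without KO tumor 5 and -1.96 without WT tumor 4.

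**Figure D2:**
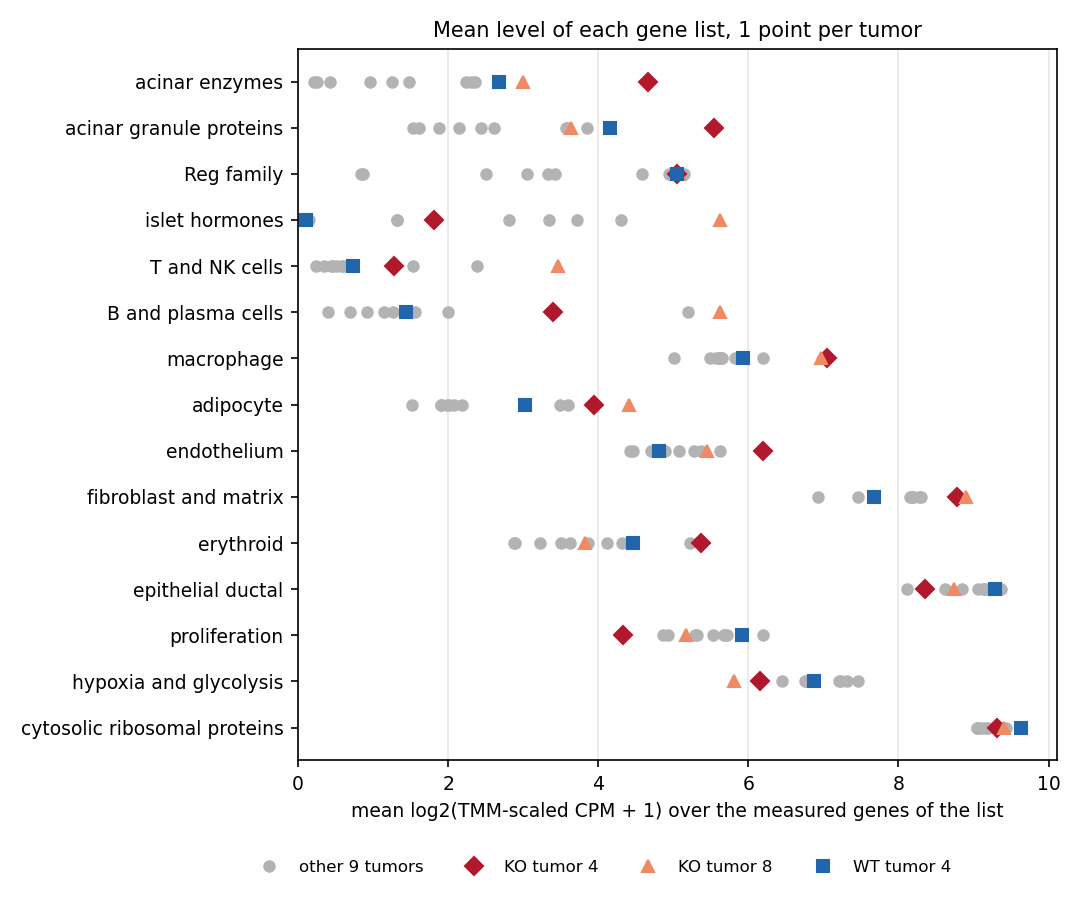
Mean log2(TMM-scaled CPM + 1) over the genes of 15 lists (rows), 1 point per tumor, with the 3 acinar-rich tumors in color and the other 9 in gray. Acinar enzymes put the 3 tumors highest, while islet hormones ran, among these 3, from 0.10 in WT tumor 4 to 5.62 in KO tumor 8, and endothelial genes were highest in KO tumor 4.

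Genes of glycolysis and hypoxia stood lower in the 2 acinar-rich KO tumors. Of 21 tested entries in this list (Aldoa has 2) 20 had negative fold changes, with a median of -0.67. Pgam1, a glycolytic enzyme, stood at 20.9 CPM in KO tumor 4 and 15.1 in KO tumor 8, but at 46.9 in WT tumor 4, against 30.7 to 81.2 in the others (-1.05 ± 0.35). Slc2a1, the glucose transporter GLUT1, stood at 77.3, 62.6 and 177 CPM against 119 to 373 (-1.01 ± 0.33). WT tumor 4 lay inside the range of the other tumors for both. The list means were 6.16 and 5.81 in the 2 KO tumors, 6.88 in WT tumor 4 and 6.45 to 7.46 in the other 9. Of 25 cell cycle genes 23 had negative fold changes (median -0.36). KO tumor 4 was the lowest of the acinar-rich tumors for 24 of the 25 and WT tumor 4 the highest for 24. Without KO tumor 4 the cell cycle median was -0.01, without KO tumor 6 -0.23 and without WT tumor 4 -0.61. The glycolysis and hypoxia median was -1.01 without WT tumor 4.

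Across all genes no gene was called in this contrast at an adjusted p under 0.05 by edgeR (0% higher and 0% lower of 18674, smallest adjusted p 0.253 with Benjamini-Hochberg adjustment). At an unadjusted p under 0.05 stood 1636 genes higher (8.76%) and 1074 lower (5.75%), limma-voom called none, and DESeq2 called 221 higher and 125 lower. With the score in place of the groups, 232 genes that were higher with it (1.24%) and 180 that were lower (0.964%) passed the threshold in edgeR. The score is made of the values that ranked the tumors, so these counts describe the libraries and are no test either. Of the 232, 22 belonged to the acinar lists, among them 14 of the 18 enzymes and 6 of the 8 granule genes. The rule of naming drew on called genes and so named none outside the lists. The genes that follow were chosen after their values were seen, as the largest fold changes among genes whose groups did not overlap.

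Among the 225 genes with all 3 acinar-rich tumors above all 9 others, 2210010C04Rik, a trypsinogen-like gene, stood at 227, 27.1 and 56.9 CPM against 0.0354 to 14.5 (4.93 ± 1.11). Retnla, a secreted protein of alternatively activated macrophages and fat, stood at 52.1, 81.5 and 26.0 CPM against 0.115 to 8.04 (4.49 ± 0.91). Lyz1, a lysozyme, stood at 22, 36.2 and 23.5 CPM against 0.970 to 10.3 (2.80 ± 0.56). Col14a1, a fibril-associated collagen, stood at 337, 213 and 113 CPM against 16.8 to 107 (1.9 ± 0.47). Ces1d, a carboxylesterase of liver and fat, had 3.15 ± 0.78, and Agt, angiotensinogen, 2.44 ± 0.48. Wnt5b stood at 38.7 CPM in WT tumor 4 and only 3.58 and 6.28 in the KO tumors, and its gene overlaps Fbxl14 on the opposite strand (79.3 CPM there).

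All 3 acinar-rich tumors lay below all 9 others for 252 genes (1.35%). Sprr1a, a cornified envelope protein of squamous cells, stood at 40.0, 14.0 and 16.3 CPM in KO tumor 4, KO tumor 8 and WT tumor 4, against 65.8 to 502 (-2.67 ± 0.67). Krt13, a keratin of squamous epithelium, stood at 0.239, 0.212 and 0.193 CPM against 0.778 to 4.95 (-2.95 ± 0.57). Plat, tissue plasminogen activator, stood at 259, 82.4 and 91.6 CPM against 346 to 895 (-1.85 ± 0.40). Ptgs2, the prostaglandin enzyme cyclooxygenase-2, stood at 10.9, 12.5 and 9.96 CPM against 21.4 to 111 (-1.96 ± 0.52). Tubb3, a tubulin best known from neurons, stood at 5.33, 3.49 and 3.98 CPM against 5.57 to 27.7 (-2.08 ± 0.44). The basal and squamous list as a whole had a median of -0.29, with 5 of 9 genes negative, and between -0.85 (without WT tumor 2 or WT tumor 4) and -0.21 (without WT tumor 3) with single tumors left out.

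Signs of RNA makeup moved with the group as well. CT010467.1, a ribosomal RNA gene, stood at 605, 299 and 152 CPM in the acinar-rich tumors and at 6.45 to 197 in the others, and cytosolic ribosomal protein genes had a median of 0.26, with Rps9 at 772, 931 and 1059 CPM against 530 to 701 (0.57 ± 0.12). As a sign of sex, Xist was above 10 CPM in 3 of the other 9 tumors (KO tumors 1, 3 and 6). It was below 10 CPM in all acinar-rich and all WT tumors. These are too few tumors to say that sex differed between the groups. The part of RNA makeup and of sex in the results was not tested.

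**Figure D3:**
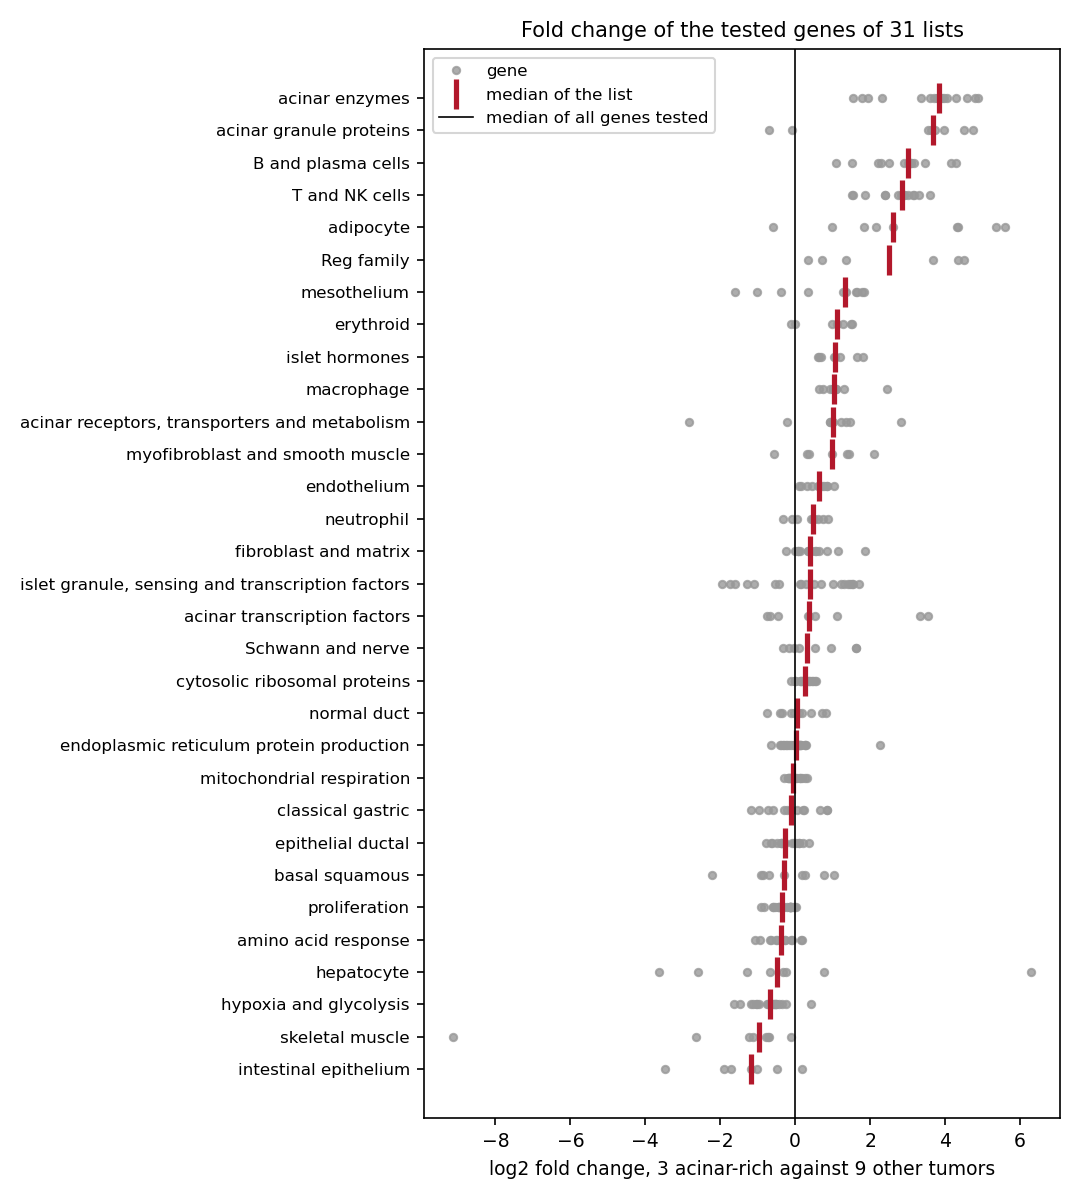
Log2 fold change of each tested gene (gray points) in 31 lists, 3 acinar-rich against 9 other tumors with genotype in the fit, with the median of each list (red bar) and of all genes tested (black line, 0.01). Acinar enzymes (3.83) and granule proteins (3.68) had the highest medians, followed by B and plasma cell genes (3.01) and T and NK cell genes (2.86).

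The cell lines, which had no part in the ranking, had little RNA of most acinar enzyme and granule genes. Of the 18 tested enzymes 16 (88.9%) were under 1 CPM in all 10 lines, as were 6 of 8 granule genes, against 25.8% of all genes tested. The 2 exceptions among the enzymes were Pla2g1b, a phospholipase (4.08 CPM at most), and Pnliprp2 (4.36 CPM at most). The other 2 acinar lists were less absent. Under 1 CPM in every line were 3 of 9 transcription factors (33.3%) and 5 of 9 genes of receptors, transporters and metabolism (55.6%). Among the genes with all 3 acinar-rich tumors above the rest, 85 of 225 (37.8%) were under 1 CPM in every line, and among those below the rest 19 of 252 (7.54%). Of the genes that passed with the score, which were likewise picked from these tumors, 53.9% of those higher and 1.67% of those lower were under 1 CPM in every line. Most of the lower genes thus reached 1 CPM in at least 1 line, as did most of all genes tested. In the highest line Plat stood at 898 CPM and Sprr1a at 1044 CPM. Which cells carried these genes in the tumors was not tested. Tumors and lines were compared as levels only.

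The labels ask how KO and WT tumors differ, and a difference in the acinar signal itself was not larger than the spread between tumors. The mean of the enzyme list, as log2(CPM + 1) on library totals, was 2.20 ± 1.32 in KO tumors (SD, n = 8) and 1.08 ± 1.14 in WT tumors (SD, n = 4). The difference of 1.12 had p = 0.194 in an exact two-sided permutation test over every relabelling of the 12 tumors. With the acinar-rich group in the fit, edgeR called 2 genes higher in KO tumors (0.0107% of 18674) and 1 lower (0.00536%). At an unadjusted p under 0.05 it gave 1527 higher and 1682 lower genes.

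Acat1, a mitochondrial enzyme of ketone body and isoleucine breakdown, stood at 109 ± 11.0 CPM in KO (SD, n = 8) and 41.3 ± 5.75 in WT tumors (SD, n = 4). Its log2 fold change was 1.40 ± 0.13 (edgeR adjusted p = 0.00391), and it was higher in all 8 KO tumors than in any WT tumor. Taf7, part of the TFIID complex that starts transcription at promoters, stood at 19.9 ± 1.81 and 7.63 ± 0.93 CPM (1.38 ± 0.15, edgeR adjusted p = 0.00889), again without overlap. Pla2g6, a calcium-independent phospholipase, stood at 28.2 ± 4.92 and 54.5 ± 7.39 CPM (-0.96 ± 0.12, edgeR adjusted p = 0.0164). The acinar-rich KO tumors had the 2 lowest levels of Pla2g6 of all 12, at 22.1 and 20.4 CPM, and the acinar-rich WT tumor had the lowest of the 4 WT tumors, at 48.5. WT tumor 4 had the lowest Acat1 of all 12 tumors, at 34.0 CPM, against 40.5 to 47.8 in the other WT tumors. KO tumor 8 had the highest Taf7, at 22.4 CPM, with KO tumor 2 next at 22.1.

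**Figure D4:**
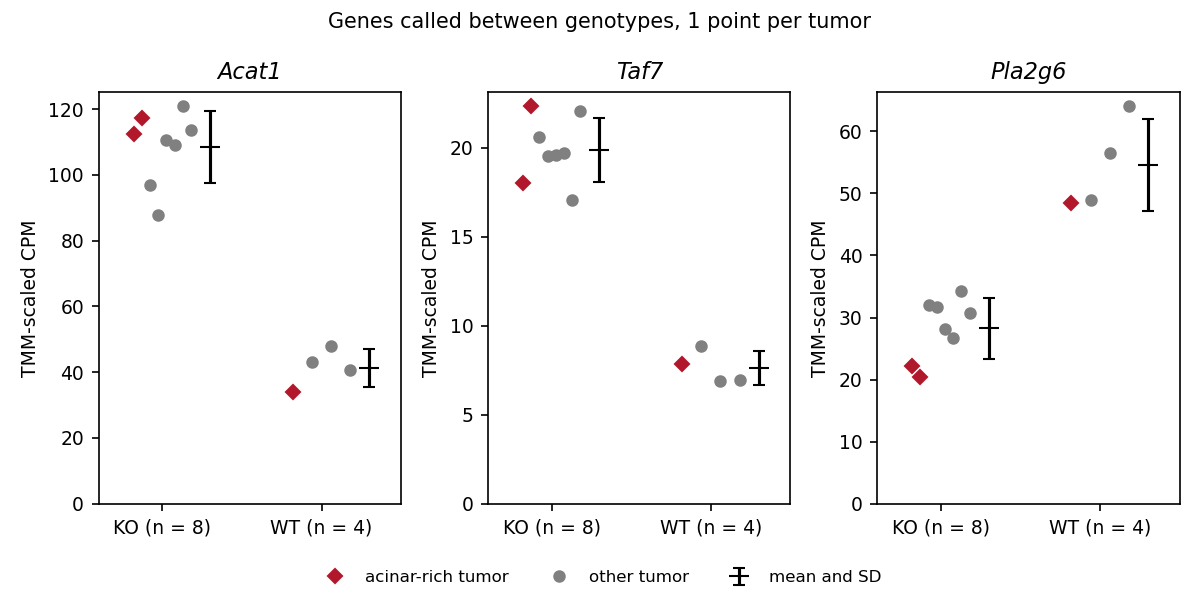
TMM-scaled CPM of Acat1, Taf7 and Pla2g6 in 8 KO and 4 WT tumors, 1 point per tumor, with the acinar-rich tumors as red diamonds and bars for the mean and SD. The genotypes do not overlap in any of the 3 panels, and for Pla2g6 the red points are the lowest of each genotype.

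Without the acinar-rich group as a covariate Acat1 and Taf7 were still called, and Pla2g6 was not (edgeR adjusted p = 0.0655). In the other 9 tumors alone (6 KO, 3 WT) none was called by edgeR, with adjusted p = 0.0943 for Acat1, 0.151 for Taf7 and 0.161 for Pla2g6, while 936 genes were higher and 994 lower at an unadjusted p under 0.05. That fit has fewer tumors, and its log2 fold changes were 1.28, 1.39 and -0.89. Over all genes the covariate moved the KO against WT fold change by a median of 0.0156. It moved 786 genes (4.21%) by more than 0.5, and among the 44 tested acinar genes 19 by more than 0.5, with a median of 0.393. The median KO against WT fold change of the enzymes was 2.0 without the covariate and 2.46 with it, and none of these genes was called between genotypes.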

How the data were processed

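The authors deposited raw counts of reads for each gene, in 12 tumors and 10 lines. Per the submitters' processing notes, bcl2fastq (1.9.0), Trim Galore and STAR were used with build mm10. The counter, its strand setting and its annotation are not given in the sources used here. Per the labels' protocols, the library kit selects mRNA and marks strand, and reads were single-end. Each table holds 53342 genes. Of these, 53237 were given a symbol and type from GENCODE vM21 on mm10, and 105 (0.00910% of tumor counts) were not. No 2 libraries were identical and none was left out.

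Tumors were scored with a pseudocount of 1. Genes were fitted with edgeR 4.0.16 (R 4.3.3) on the counts of all 12 tumors, with its low-count filter, TMM factors, robust quasi-likelihood tests, genotype and the acinar-rich group as terms, and Benjamini-Hochberg adjustment over 18679 genes, threshold 0.05. The common biological coefficient of variation was 0.481. The fits were tested on simulated data. KO against WT is the genotype term of that fit. The alternatives were other scaling, filters, DESeq2 1.42.0, limma-voom (limma 3.58.1), a non-robust fit, no genotype term, KO tumors alone, the score as covariate, the other 9 tumors alone, and each tumor left out. Members ranked without Pnlip were added after seeing the data.

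The members, the 31 gene lists and the tests were chosen with earlier results of these data known. Per list, up to 5 members with the smallest p could be named (all Reg genes, islet hormones and acinar factors), and outside the lists the called genes. Since none was called in the group contrast, protein-coding genes of at least 1 CPM whose groups did not overlap were named by fold change instead, and further list members were named after their values were seen. The labels do not number litters or batches, and p-values measure the spread between these animals. Results of some genes are not reported here.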

Additional observations from a re-analysis of the deposited data

Results flagged for a closer look

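Dixon's rule at 95% was applied to 37 sets of values, the mean of each of the 31 lists over the other 9 tumors and the level of Acat1, Taf7 and Pla2g6 in each genotype. It marked 4, and chance marks about 1 in 20. All 4 are tumors outside the acinar-rich group, and values are mean log2(CPM + 1) over a list. The skeletal muscle list stood at 6.55 in WT tumor 3, far above the other 8. Ckm, the muscle creatine kinase, was at 166 CPM there and at most 5.56 in the other 11 tumors. The hepatocyte list stood at 2.63 in WT tumor 1. The mesothelium list stood at 5.90 in KO tumor 7, above KO tumor 4 at 5.61. The intestinal epithelium list stood at 6.24 in KO tumor 5, with Alpi, the intestinal alkaline phosphatase, at 225 CPM there. These tumors belong to the comparison group of the fold changes of those 4 lists.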

How the results depend on the processing

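In the group contrast edgeR called 0 genes in each direction. DESeq2 called 221 higher and 125 lower, and with the score as covariate 232 and 180 passed, which is no test. Leaving out each tumor gave 0 to 0 higher and 0 to 1 lower, the 1 being the pseudogene Smt3h2-ps without KO tumor 8. The other alternatives called 0. The enzyme median of 3.83 ran from 3.33 to 4.37 with single tumors left out, and was 1.36 per unit of score, which is another scale. Ranking without Pnlip kept 2 of the 3 members. The skeletal muscle median (-0.96) was 0.14 in KO tumors alone and 0.19 with members ranked without Pnlip, and -5.22 without the genotype term. Medians of further lists changed sign in some alternatives, as for islet hormones (-2.41 without KO tumor 8), neutrophils (0.48, and -0.52 without KO tumor 4) and smooth muscle (0.98, and -0.68 without WT tumor 4). The share of genes above the rest that every line had under 1 CPM (37.8%) was 27.6% at 0.5 CPM and 45.8% at 2 CPM.

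For KO against WT, where edgeR called 2 higher and 1 lower, DESeq2 called 624 and 451. In the other 9 tumors alone the counts were 0 and 0. Leaving out single tumors gave 1 to 122 higher and 0 to 170 lower, the most without WT tumor 2, and 75 and 8 without KO tumor 2. No gene was called lower without the acinar-rich covariate, without a low-count filter, with the score as covariate or with members ranked without Pnlip (0 in each). The cause was not tested. Acat1 passed in 23 of 24 alternatives (adjusted p up to 0.0943), Taf7 in 20 (up to 0.151) and Pla2g6 in 11 (up to 0.222), each with its direction kept. Taf7 did not pass when WT tumor 1, 3 or 4 was left out. The difference in acinar enzymes between genotypes was 0.761 to 1.63 with single tumors left out, with exact permutation p between 0.0788 and 0.394. No paired analysis was possible because the labels give no replicate numbers that tumors of the genotypes share. With 3 tumors in the smaller group, spread between animals limits the precision more than counting does.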
